A study of Mus musculus with 17 samples.

Results

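The INK4 and KIP families hold the 7 mouse genes that encode inhibitors of cyclin-dependent kinases (CDKs), and their RNA levels were described here across mammary tumours and normal mammary tissue. The genes were taken by family membership: the INK4 family with Cdkn2a, Cdkn2b, Cdkn2c and Cdkn2d (4 genes) and the KIP family with Cdkn1a, Cdkn1b and Cdkn1c (3 genes). The families were chosen with earlier results of these data known. They are 7 of 19939 genes tested, and all 7 were measured. Total RNA of each sample was hybridised to an Affymetrix Mouse Gene 1.0 ST array (17 arrays), and levels are log2 values, so that a difference of 1 is a doubling.

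The 9 Rb/p53 tumours are labelled as deleted for Rb, the retinoblastoma gene, and for p53. In 7 of them Cre recombinase was driven by the promoter of mouse mammary tumour virus (MMTV-Cre), which is active in mammary epithelium and some other tissues, and in 2 it was delivered by adenovirus under a cytomegalovirus promoter (Ad-Cre), which is active in most cell types. MMTV-Cre replicate 1 came from a nulliparous mouse and replicate 2 from a parous mouse, whereas MMTV-Cre replicates 3 to 7 and both Ad-Cre tumours were transplants. The 3 p53 tumours carried MMTV-Cre and are labelled as deleted for p53. The 5 samples of normal mammary tissue were taken from Rb/p53 model mice. All mice were of a mixed strain background and the tumours are described as independent. The age of the mice, the hosts of the transplants, the deleted exons and the Cre status of the normal tissue are not given here, nor whether the normal samples are from 5 animals, so p-values reflect the spread among samples that may in part be technical. For p53 replicate 3 the title gives the Rb/p53 model while the other labels give p53 deletion, and it was kept with the p53 tumours.

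CDKs bound to cyclins drive cells from G1 into S phase by phosphorylating Rb, which then releases the E2F transcription factors. INK4 proteins bind Cdk4 and Cdk6 and keep D-type cyclins from activating them, whereas KIP proteins bind cyclin-CDK complexes more widely, above all those of Cdk2. Cdkn2a is unusual in that it encodes both p16, an INK4 protein, and, from another first exon and reading frame, p19Arf, which holds Mdm2 away from p53. It lies beside Cdkn2b, which encodes p15, and the pair is known to be induced by oncogenic signals and silenced by Polycomb proteins.

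The probe set for Cdkn2a lists transcripts of both p16 and p19Arf, so the 2 products cannot be told apart in these values. The promoters of the neighbouring genes Cdkn2a and Cdkn2b, and that of Cdkn1a as the best known p53 target, are shown because the results below turn on them. They are RefSeq windows of 300 bases on build GRCm38.p6, from 250 bases before to 50 after a transcription start, printed 5′ to 3′ on the gene's strand. Capitals mark an E2F motif in the first and a p53 motif in the last.
Cdkn2a, start of the p19Arf transcript, chr4:89294570-89294869, minus strand: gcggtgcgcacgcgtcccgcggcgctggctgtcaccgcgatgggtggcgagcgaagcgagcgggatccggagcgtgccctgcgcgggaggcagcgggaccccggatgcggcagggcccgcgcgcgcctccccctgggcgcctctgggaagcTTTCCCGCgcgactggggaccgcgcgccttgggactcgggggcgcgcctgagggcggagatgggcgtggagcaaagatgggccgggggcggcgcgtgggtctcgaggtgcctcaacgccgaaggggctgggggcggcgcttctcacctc
Cdkn2a, start of the p16 transcript, chr4:89282143-89282442, minus strand: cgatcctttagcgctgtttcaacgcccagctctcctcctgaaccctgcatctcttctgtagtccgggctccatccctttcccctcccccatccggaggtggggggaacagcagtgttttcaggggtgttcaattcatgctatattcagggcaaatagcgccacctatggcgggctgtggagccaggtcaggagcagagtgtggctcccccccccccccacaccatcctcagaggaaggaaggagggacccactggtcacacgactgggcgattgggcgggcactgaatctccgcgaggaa
Cdkn2b, chr4:89310983-89311282, minus strand: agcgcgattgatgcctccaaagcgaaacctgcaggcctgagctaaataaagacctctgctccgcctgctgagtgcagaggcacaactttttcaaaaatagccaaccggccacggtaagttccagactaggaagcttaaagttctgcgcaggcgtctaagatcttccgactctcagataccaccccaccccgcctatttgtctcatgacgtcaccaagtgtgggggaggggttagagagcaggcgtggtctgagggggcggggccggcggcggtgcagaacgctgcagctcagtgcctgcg
Cdkn1a, upstream start, chr17:29090729-29091028, plus strand: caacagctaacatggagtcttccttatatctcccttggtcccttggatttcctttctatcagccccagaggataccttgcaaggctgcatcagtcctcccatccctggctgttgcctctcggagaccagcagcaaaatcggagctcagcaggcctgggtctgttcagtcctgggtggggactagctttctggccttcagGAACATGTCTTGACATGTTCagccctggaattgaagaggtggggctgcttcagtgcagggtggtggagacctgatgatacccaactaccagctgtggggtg

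E2F and p53 motifs were looked for because E2F factors are known to act on the p19Arf promoter and p53 on the Cdkn1a promoter in mouse cells. The E2F search used TTTCCCGC, TTTCGCGC, TTTGCCGC and TTTGGCGC on both strands. Of 9 windows available for 6 of the 7 genes, 1 held such a match, that of the p19Arf transcript, at 99 bases before the start. Over all genes 744 of 32851 windows (2.26%) held a match. The p53 motif was searched as a pair of decamers without a gap and with at most 1 mismatch, and 29 windows (0.0883%) held one. Among the 9 windows the upstream Cdkn1a window alone held it, with 1 mismatch, starting 51 bases before the start. A match describes letters and not binding, and the windows of Cdkn2c, Cdkn2d and Cdkn1b and the downstream window of Cdkn1a held neither motif.

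The p53 replicate 2 array stood apart from the others. It correlated with them at r = 0.888 to 0.915 across probe sets, while all other pairs reached 0.929 or more, and its interquartile range was 2.39 against 2.91 to 3.18. Folds of the 7 genes that rest on the p53 tumours are therefore given with and without it. Rb1 read 9.29 to 9.92 in the 9 Rb/p53 tumours and 10.93 to 11.50 in the 5 normal samples, a log2 fold of -1.67 ± 0.16 (SE, adjusted p = 7.75e-07). In the p53 tumours it read 9.93, 11.00 and 10.27. On the 7 probe sets used in the comparisons no level fell below 7.43, above the highest 25th percentile of an array at 6.80.

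In Rb/p53 tumours the INK4 genes Cdkn2a, Cdkn2b and Cdkn2d rose against normal tissue, and no CDK inhibitor gene fell. In p53 tumours Cdkn2a and Cdkn2d rose and Cdkn2c fell. None of the 3 KIP genes passed the test in either comparison. With limma and p-values adjusted over all 19939 genes, 3 of 7 genes passed as higher in Rb/p53 tumours, against 14.2% of all genes, and none as lower, against 13.4%. In p53 tumours 2 of 7 passed as higher, against 8.34% of all genes, and 1 as lower, against 12.1%. The median log2 fold of the 4 INK4 genes was 1.10 in Rb/p53 and 0.64 in p53 tumours, that of the 3 KIP genes 0.11 and 0.00, and that of all genes 0.03 and 0.09. Both comparisons use the same 5 normal samples. Where groups are said below not to overlap, or tumours to lie above or below all normal samples, this describes the values only. The share of all genes that separate in the same way is not given here.

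**Figure D1:**
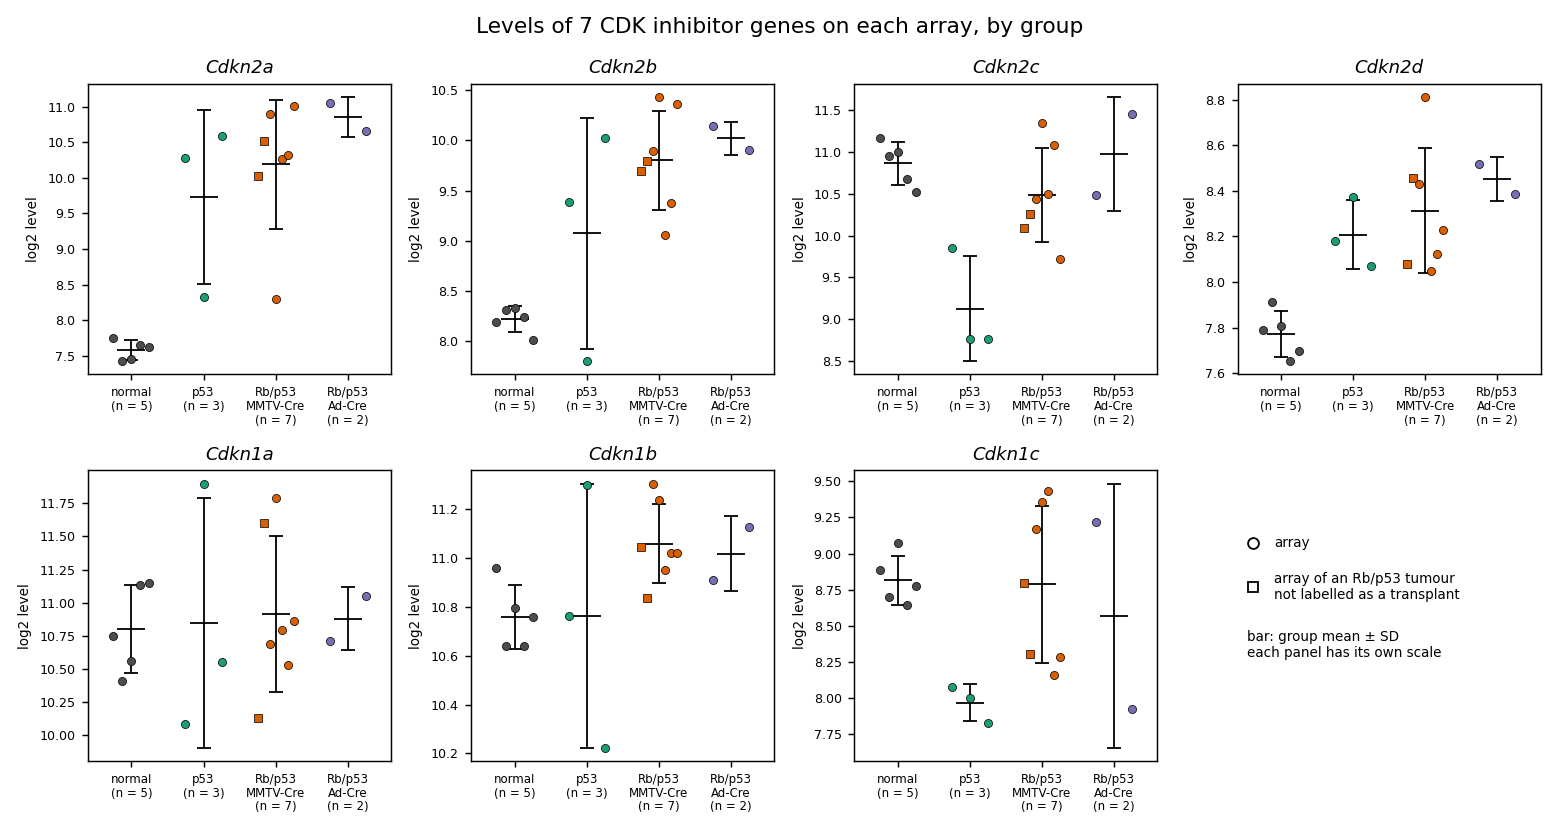
Log2 levels of the 7 CDK inhibitor genes on each of the 17 arrays, by group, with bars for the group mean ± SD and squares for Rb/p53 tumours that are not transplants. Cdkn2a lay above all 5 normal samples in every tumour, with MMTV-Cre replicate 4 and p53 replicate 2 far below the rest, and Cdkn2c lay below all normal samples in the 3 p53 tumours.

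Of the 7 genes Cdkn2a showed the largest difference from normal tissue in Rb/p53 tumours. Its levels (probe set 10514340) were 7.75, 7.43, 7.45, 7.65 and 7.63 in the normal samples. In the MMTV-Cre Rb/p53 tumours they ran from 8.30 through a median of 10.32 to 11.01, and in the Ad-Cre tumours they were 11.05 and 10.66. The p53 tumours read 10.28, 8.33 and 10.59. Every tumour thus lay above every normal sample, and 2 tumours, MMTV-Cre replicate 4 and p53 replicate 2, lay between the normal samples and the rest. The means were 10.86 ± 0.28 (SD, n = 2) with Ad-Cre, 10.19 ± 0.90 (SD, n = 7) with MMTV-Cre, 9.73 ± 1.23 (SD, n = 3) for p53 deletion and 7.58 ± 0.14 (SD, n = 5) for normal tissue. Neighbouring tumour groups in this order differed by less than their larger SD.

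The rise in Rb/p53 tumours was 2.75 ± 0.41 on the log2 scale (SE, 95% interval 1.90 to 3.61, adjusted p = 7.74e-05), or 6.75-fold. In p53 tumours it was 2.15 ± 0.53 (SE, 95% interval 1.03 to 3.27, adjusted p = 0.00846), or 4.44-fold, and without p53 replicate 2 it was 2.85 (adjusted p = 0.00098). The call held in all 31 alternatives for Rb/p53 and all 28 for p53 tumours, with folds of 2.61 to 3.27 and 1.72 to 2.85. Without MMTV-Cre replicate 4 the Rb/p53 mean was 10.59 ± 0.38 (SD, n = 8). In bulk samples, fewer cells of a type and less RNA per cell cannot be told apart, which applies to every level given here.

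Cdkn2b, the gene next to Cdkn2a that encodes the TGF-beta-responsive inhibitor p15, rose in Rb/p53 tumours too. Its levels (probe set 10514347) were 8.20, 8.31, 8.33, 8.25 and 8.01 in normal tissue, against 9.06 to 10.43 with a median of 9.79 with MMTV-Cre and 10.14 and 9.90 with Ad-Cre. The log2 fold was 1.63 ± 0.28 (SE, 95% interval 1.03 to 2.23, adjusted p = 0.000392), or 3.09-fold, and all 9 tumours lay above all normal samples. With only the 2 tumours that were not transplants the fold was 1.52 and the call was lost (adjusted p = 0.0601).

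The p53 tumours read 9.39, 7.80 and 10.03 for Cdkn2b, so replicates 1 and 3 lay above all normal samples and replicate 2 below them all. The log2 fold of 0.85 ± 0.37 (SE) did not pass (adjusted p = 0.113), and without replicate 2 it was 1.49 (adjusted p = 0.00194). The group order was Ad-Cre at 10.02 ± 0.17 (SD, n = 2), MMTV-Cre at 9.80 ± 0.49 (SD, n = 7), p53 at 9.07 ± 1.14 (SD, n = 3) and normal at 8.22 ± 0.13 (SD, n = 5). Each neighbouring pair differed by less than the larger SD of the pair.

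The 2 tumours with low Cdkn2a differed in the genes beside it. MMTV-Cre replicate 4 had Cdkn2a at 8.30 but the highest Cdkn2b of all samples at 10.43, and Mtap, the methylthioadenosine phosphorylase gene on the other side of Cdkn2a in the gene order of chromosome 4, at 11.20. In p53 replicate 2 all 3 genes were low: Cdkn2a at 8.33, Cdkn2b at 7.80 and Mtap at 8.46, the last 2 below every normal sample. Its Rb1 level of 11.00 and its macrophage marker mean of 12.97, the highest of all arrays, differed from the other p53 tumours as well. The part of cell makeup or array quality in these low values was not tested, and DNA copy number was not measured in these data.

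**Figure D2:**
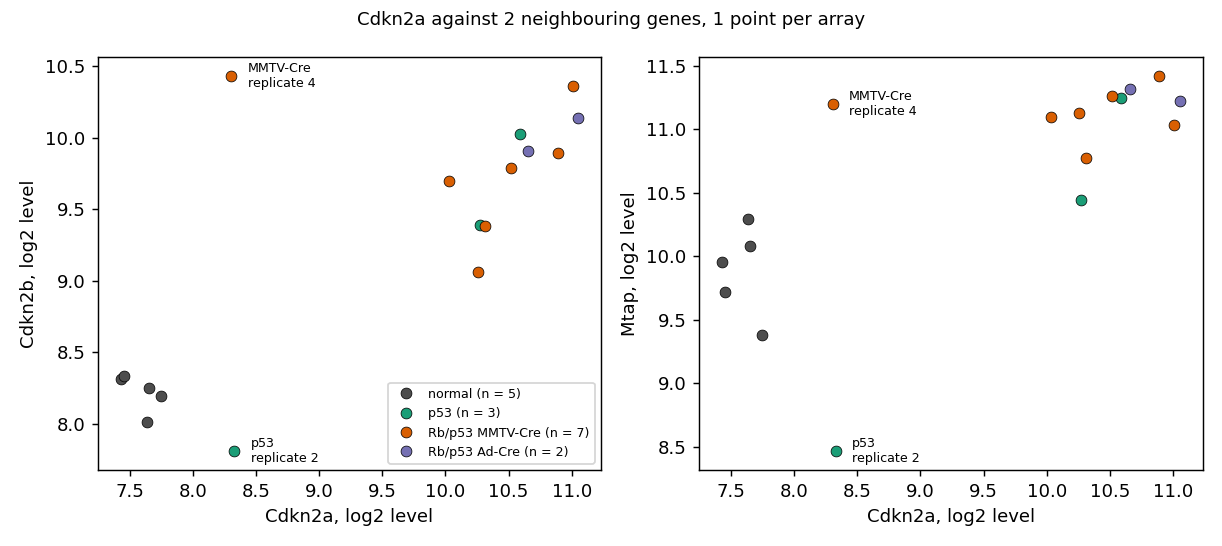
Log2 levels of Cdkn2b (left) and Mtap (right) against Cdkn2a, 1 point per array, coloured by group. MMTV-Cre replicate 4 had Cdkn2a at 8.30 with Cdkn2b at 10.43 and Mtap at 11.20, while p53 replicate 2 was low in all 3 genes.

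Mtap rose along with Cdkn2a and Cdkn2b in Rb/p53 tumours. It read 10.77 to 11.42 in the 9 Rb/p53 tumours and 9.38 to 10.29 in normal tissue, with no overlap. The log2 fold was 1.28 ± 0.30 (SE, adjusted p = 0.00472). In p53 tumours Mtap read 10.44, 8.46 and 11.25, a log2 fold of 0.17 that did not pass (adjusted p = 0.788). The value of 8.46 is that of p53 replicate 2, and the other p53 tumours lay above every normal sample. The p53 mean without replicate 2 was 10.84, against 9.88 in normal tissue, a difference for which no test is given here. Of the 4 neighbours of Cdkn2a and Cdkn2b listed (Mtap, Dmrta1, Klhl9 and Elavl2), Mtap alone passed in Rb/p53 tumours and none did in p53 tumours. Over all genes 14.2% and 8.34% passed as higher. The Mtap call was lost with only the 2 Ad-Cre tumours or only the 2 tumours that were not transplants (highest adjusted p = 0.203).

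Cdkn2c, which encodes the INK4 protein p18, ran the other way in p53 tumours. Its levels (probe set 10515090) were 11.17, 10.96, 11.00, 10.68 and 10.52 in normal tissue and 9.86, 8.76 and 8.77 in p53 tumours, with no overlap. It fell by 1.74 on the log2 scale (fold -1.74 ± 0.35 SE, 95% interval -2.49 to -0.99, adjusted p = 0.0021), and the call held in all 28 alternatives, at -1.56 without p53 replicate 2 (adjusted p = 0.0123). Rb/p53 tumours read 9.72 to 11.35 with a median of 10.44 with MMTV-Cre and 10.49 and 11.46 with Ad-Cre, overlapping both normal tissue and p53 tumours. Their log2 fold against normal was -0.27 ± 0.27 (SE, 95% interval -0.84 to 0.30, adjusted p = 0.542).

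The group order of Cdkn2c was Ad-Cre at 10.98 ± 0.69 (SD, n = 2), normal at 10.87 ± 0.26 (SD, n = 5), MMTV-Cre at 10.49 ± 0.56 (SD, n = 7) and p53 at 9.13 ± 0.63 (SD, n = 3). Only the step to the p53 tumours exceeded the larger SD of its pair. Gata3, a luminal transcription factor, was among the genes most like Cdkn2c over the 17 arrays (Pearson r = 0.883), of those ranked as described below. Its r was 0.797 over the 9 Rb/p53 tumours and 0.845 over all arrays but p53 replicate 2. Luminal markers fell in tumours as a list: 10 of 13 were lower in each comparison, with mean levels of 10.76 to 11.03 in normal samples, 8.19 to 9.80 in Rb/p53 tumours and 7.99 to 9.01 in p53 tumours. Their part in the Cdkn2c difference was not tested.

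Cdkn2d, which encodes p19Ink4d, showed small differences. Its levels (probe set 10591517) were 7.79, 7.91, 7.81, 7.65 and 7.70 in normal tissue, 8.05 to 8.81 with a median of 8.23 with MMTV-Cre, 8.52 and 8.38 with Ad-Cre, and 8.18, 8.37 and 8.07 in p53 tumours. All 12 tumours lay above all normal samples. The log2 fold was 0.57 ± 0.11 (SE, 95% interval 0.33 to 0.81, adjusted p = 0.00122) in Rb/p53 tumours, or 1.49-fold, and 0.44 ± 0.15 (SE, adjusted p = 0.0484) in p53 tumours. The call in p53 tumours was lost in 16 of 28 alternatives, among them without any 1 of the 5 normal samples, on leaving out p53 replicate 1 (0.45, adjusted p = 0.081) or 2 (0.35, adjusted p = 0.155). With only the 2 Rb/p53 tumours that were not transplants the Rb/p53 call was lost as well (0.50, adjusted p = 0.0635). The means were 8.45 ± 0.10 (SD, n = 2) with Ad-Cre, 8.31 ± 0.27 (SD, n = 7) with MMTV-Cre, 8.21 ± 0.15 (SD, n = 3) in p53 and 7.77 ± 0.10 (SD, n = 5) in normal samples. In this order neighbouring tumour groups differed by less than the larger SD of the pair, and the step to normal tissue exceeded it.

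Cdkn1a encodes p21, the CDK inhibitor through which p53 is best known to arrest cells, and its promoter window above carries the p53 motif. It was read from a probe set (10443463) that also lists the transcript 4930567H12Rik, so its signal may hold both. Levels were 10.75, 10.41, 10.56, 11.13 and 11.15 in normal tissue, 10.13 to 11.79 with a median of 10.79 with MMTV-Cre, 10.71 and 11.05 with Ad-Cre, and 10.09, 11.90 and 10.55 in p53 tumours. All groups overlapped, and the tumours labelled as p53-deleted held both the lowest and the highest level.

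The group means of Cdkn1a lay between 10.80 ± 0.33 (SD, n = 5) in normal tissue and 10.91 ± 0.59 (SD, n = 7) with MMTV-Cre, with 10.88 ± 0.24 (SD, n = 2) with Ad-Cre and 10.85 ± 0.94 (SD, n = 3) in p53 tumours. Neither the Rb/p53 fold of 0.11 ± 0.29 (SE, 95% interval -0.50 to 0.71, adjusted p = 0.852) nor the p53 fold of 0.05 ± 0.38 (SE, adjusted p = 0.943) passed. The p53 fold was -0.48 without p53 replicate 2, which had the highest Cdkn1a level at 11.90 (adjusted p = 0.396). The intervals still allow log2 differences of about the size measured for Cdkn2d.

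Of 14 other p53 targets measured, 2 rose and 2 fell in Rb/p53 tumours, with a median log2 fold of 0.07, shares close to the 14.2% and 13.4% of all genes. Ccng1, which encodes cyclin G1, fell (-0.66 ± 0.12 SE, adjusted p = 0.000417), as did Phlda3, an inhibitor of Akt (-0.93 ± 0.22, adjusted p = 0.00388). Gtse1, a regulator of p53 in G2 phase, rose (0.81 ± 0.21, adjusted p = 0.00719), and so did Eda2r, a death receptor (1.07 ± 0.36, adjusted p = 0.0349), whose call was lost in 13 of 31 alternatives, among them without any 1 normal sample (highest adjusted p over all alternatives 0.206). In p53 tumours Phlda3 (-1.59 ± 0.28, adjusted p = 0.000702) and Ccng1 (-0.62 ± 0.15, adjusted p = 0.00848) fell and none of the 14 rose, with a median of -0.03, where 12.1% of all genes were lower and 8.34% higher. Without p53 replicate 1 Ccng1 no longer passed (adjusted p = 0.0561), and the Phlda3 fold was -1.04 without p53 replicate 2. Mdm2, a p53 target that degrades p53, did not pass in either comparison (0.09, adjusted p = 0.675, and -0.07, adjusted p = 0.774).

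Cdkn1b, which encodes p27, depended on which of its 2 probe sets was read. On the set with the higher mean (10542310), used by rule, levels were 10.96, 10.64, 10.80, 10.64 and 10.76 in normal tissue and 10.83 to 11.30 in the 9 Rb/p53 tumours, with overlap. The log2 fold of 0.29 ± 0.13 (SE, 95% interval 0.01 to 0.57) did not pass (adjusted p = 0.12). It passed without p53 replicate 2 (adjusted p = 0.0303) or 3 (adjusted p = 0.0393) and with only the arrays compared (adjusted p = 0.0143), where the fold is the same and the spread is estimated from other arrays. With the mean of both probe sets the fold was 0.71 and passed (adjusted p = 0.00158). The p53 tumours read 10.76, 11.30 and 10.22, a range wider than that of all 9 Rb/p53 tumours, with a fold of 0.00 ± 0.17 (SE, adjusted p = 0.99) and of -0.26 without p53 replicate 2 (adjusted p = 0.236).

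On the other probe set (10542317) all 9 Rb/p53 tumours lay above all normal samples, at 7.94 to 8.84 against 7.44, 7.26, 7.59, 6.64 and 6.74. The last 2 lie below the highest 25th percentile of any array (6.80) but above the highest of the normal arrays (6.49). The log2 fold there was 1.13 ± 0.21 (SE, adjusted p = 0.000579). The p53 tumours read 8.02, 8.15 and 7.16, a fold of 0.64 ± 0.27 (SE) that did not pass (adjusted p = 0.102). The 2 Rb/p53 tumours with MMTV-Cre that were not transplants read highest with MMTV-Cre, at 8.65 and 8.84 against 7.999 to 8.22 in the 5 transplants. That difference did not pass (transplanted against other -0.67 ± 0.10 SE, limma adjusted p = 0.258), and Ad-Cre replicate 2, also a transplant, read 8.60. On the set with the higher mean the 2 tumours that were not transplants read 11.05 and 10.83, the latter the lowest with MMTV-Cre. The set with the lower mean was examined after the values of the first were seen. Which part of the gene each set covers was not used here.

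**Figure D3:**
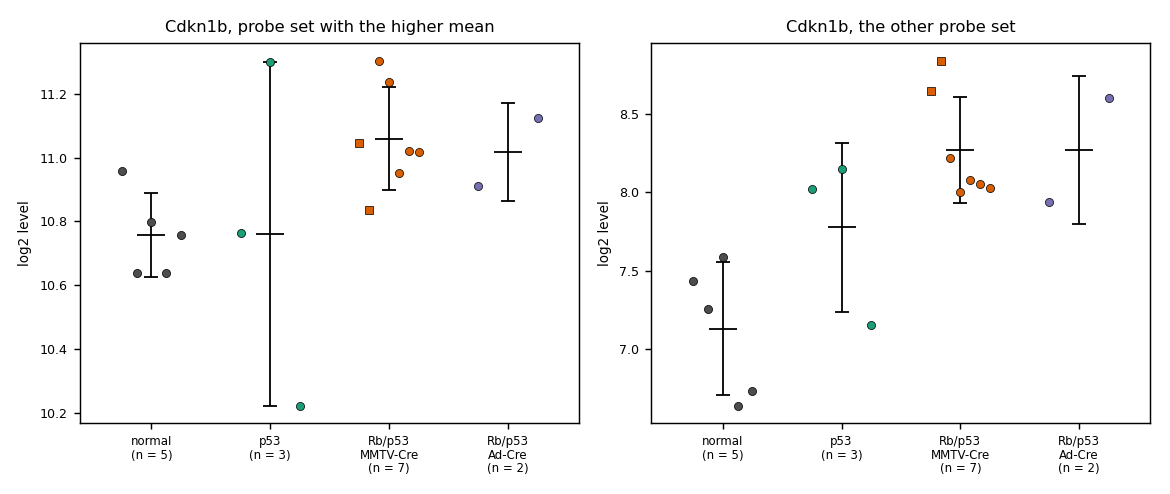
Log2 levels of Cdkn1b on each array from its 2 probe sets, by group, with bars for the mean ± SD and squares for Rb/p53 tumours that are not transplants. Rb/p53 tumours and normal samples overlapped on the set with the higher mean (left) and did not on the other set (right), where the log2 fold was 1.13.

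The protein p27 is known to be held down by the ubiquitin ligase subunit Skp2 with its cofactor Cks1b, and its gene to be switched on by Foxo transcription factors. In Rb/p53 tumours Skp2 (1.00 ± 0.22 SE, adjusted p = 0.00283) and Cks1b (1.47 ± 0.43, adjusted p = 0.0171) rose and Foxo1 fell (-0.67 ± 0.14, adjusted p = 0.00152), the 3 of 10 genes of this list that passed. Cks1b lost its call without normal replicate 1 (1.30, adjusted p = 0.0574). In p53 tumours Foxo1 (-1.18 ± 0.18, adjusted p = 0.000167) and Skp1, another ligase subunit (-0.70 ± 0.17, adjusted p = 0.00668), fell and Skp2 rose (0.89 ± 0.29, adjusted p = 0.0398). The Skp2 call was lost without p53 replicate 1 or 3 or normal replicate 1, 2 or 3 (highest adjusted p = 0.122). The Skp1 fold was -0.44 without p53 replicate 2. Medians over the list were 0.02 and -0.26. Over all genes 14.2% were higher and 13.4% lower in Rb/p53 tumours, and 8.34% and 12.1% in p53 tumours. The counts of this list lie near those shares. Foxo1 is also high in adipocytes, and all 11 measured adipocyte markers fell in both comparisons, from mean levels of 11.87 to 12.51 in normal samples to 7.25 to 8.24 in Rb/p53 and 7.24 to 7.96 in p53 tumours. Their part in the Foxo1 difference was not tested.

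Cdkn1c encodes p57, the KIP inhibitor expressed from the maternal allele of an imprinted cluster. Its levels (probe set 10569429) were 8.89, 8.70, 9.07, 8.65 and 8.78 in normal tissue. They were 8.16 to 9.43 with a median of 8.80 with MMTV-Cre, 9.22 and 7.92 with Ad-Cre, and 8.08, 7.999 and 7.83 in p53 tumours. The p53 tumours thus lay below all normal samples, while Rb/p53 tumours ran from the level of p53 tumours to above the highest normal sample.

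The p53 log2 fold of Cdkn1c, -0.85 ± 0.31 (SE, 95% interval -1.50 to -0.20), did not pass (adjusted p = 0.06), nor did it without p53 replicate 2 (-0.86, adjusted p = 0.108). It passed with only the arrays compared (adjusted p = 0.00288) and without MMTV-Cre replicate 5 (adjusted p = 0.0485) or Ad-Cre replicate 2 (adjusted p = 0.0383), tumours that enter through the shared spread alone. The Rb/p53 fold was -0.08 ± 0.23 (SE, 95% interval -0.57 to 0.42, adjusted p = 0.867). The order was normal at 8.82 ± 0.17 (SD, n = 5), MMTV-Cre at 8.79 ± 0.54 (SD, n = 7), Ad-Cre at 8.57 ± 0.91 (SD, n = 2) and p53 at 7.97 ± 0.13 (SD, n = 3), each step smaller than the larger SD of its pair. Of 8 measured neighbours of Cdkn1c in the cluster, Slc22a18, an imprinted transporter gene, was the 1 that passed, lower in both Rb/p53 (-0.98 ± 0.18 SE, adjusted p = 0.00048) and p53 tumours (-0.86 ± 0.23, adjusted p = 0.0133). That count is near the 13.4% and 12.1% of all genes that were lower. Without p53 replicate 1 or 3 the Slc22a18 call in p53 tumours was lost (highest adjusted p = 0.0771).

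**Figure D4:**
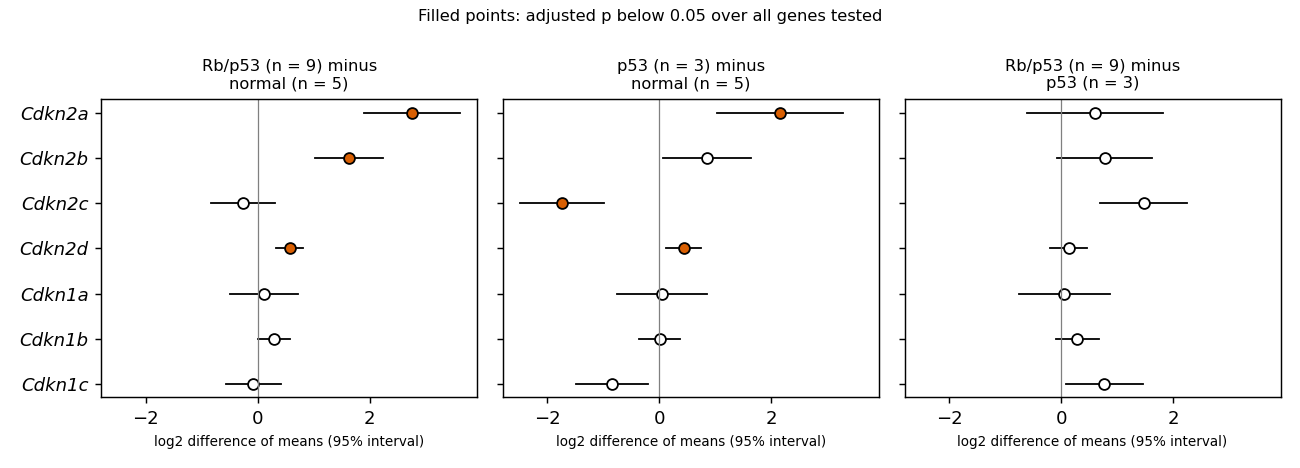
Log2 differences of group means with 95% intervals for the 7 genes in 3 comparisons, with filled points where the limma adjusted p was below 0.05 over all genes. The filled points are Cdkn2a, Cdkn2b and Cdkn2d for Rb/p53 tumours against normal tissue and Cdkn2a, Cdkn2c and Cdkn2d for p53 tumours, and there are none between the tumour genotypes.

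The tumour genotypes were set against each other on the 12 tumour arrays to ask whether loss of Rb in addition to p53 goes with other inhibitor levels. None of the 7 genes passed, against 0.00% of all genes higher and 0.00502% lower, and 2 had an unadjusted p below 0.05, as did 4117 of all genes. All 7 folds were above 0, with a median of 0.61, while the median of all genes was -0.03. Cdkn2c differed most, at 1.47 ± 0.36 (SE, 95% interval 0.69 to 2.25, adjusted p = 0.118), and it passed when the spread was estimated from all 17 arrays (adjusted p = 0.0364). Cdkn1c was at 0.77 ± 0.32 (SE, 95% interval 0.08 to 1.46, adjusted p = 0.215). For Cdkn2a the fold was 0.61 ± 0.56 (SE, 95% interval -0.60 to 1.81, adjusted p = 0.501). For Cdkn2b it was 0.78 ± 0.39 (SE, 95% interval -0.07 to 1.62, adjusted p = 0.264). The fold was 0.13 for Cdkn2d (adjusted p = 0.588), 0.06 for Cdkn1a (adjusted p = 0.934) and 0.29 for Cdkn1b (adjusted p = 0.332).

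These folds moved with single p53 tumours, in both directions. Without p53 replicate 2 the fold was -0.10 for Cdkn2a (adjusted p = 0.975), 0.14 for Cdkn2b (adjusted p = 0.935), 1.29 for Cdkn2c (adjusted p = 0.46) and 0.22 for Cdkn2d (adjusted p = 0.799). For the KIP genes it was 0.59 for Cdkn1a (adjusted p = 0.707), 0.56 for Cdkn1b (adjusted p = 0.376) and 0.79 for Cdkn1c (adjusted p = 0.629). Without p53 replicate 3, whose title gives the Rb/p53 model, it was 1.04 for Cdkn2a and 1.25 for Cdkn2b, and with that array moved to the Rb/p53 tumours 1.06 and 1.27. The lowest adjusted p of Cdkn2b over all alternatives was 0.051, and that of Cdkn2a 0.234.

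Among Rb/p53 tumours the source of Cre and transplantation were compared as well. Between Ad-Cre and MMTV-Cre tumours none of the 7 genes passed (adjusted p = 1 for each), against 0.00502% of all genes higher and 0.00% lower. The largest fold was that of Cdkn2a at 0.67 ± 0.67 (SE, 95% interval -0.80 to 2.13), followed by Cdkn2c at 0.49 ± 0.43 (SE, 95% interval -0.45 to 1.42). Between the 5 transplanted and the 2 other MMTV-Cre tumours none passed either (adjusted p = 0.737 to 0.979), against 0.00502% of all genes higher and 0.0201% lower. There the largest fold was that of Cdkn2c at 0.45 ± 0.41 (SE, 95% interval -0.52 to 1.41). The interval for Cdkn2a in that comparison ran from -1.77 to 1.53.

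Across the 9 Rb/p53 tumours no pair of the 7 genes moved together beyond the correction for 21 pairs (exact permutation test, two-sided, lowest adjusted p = 0.265 for Pearson and 0.535 for Spearman). The strongest relation was that of Cdkn2d and Cdkn1a, with r = 0.758 (p = 0.0184, exact permutation) and rho = 0.567 (p = 0.121), and r = 0.646 without the 2 tumours farthest from the Cdkn2d median. Cdkn2b and Cdkn2d followed with r = 0.731 (p = 0.0252, exact permutation) and rho = 0.75 (p = 0.0255), and r = 0.43 without the 2 tumours farthest from the Cdkn2b median. For the adjacent genes Cdkn2a and Cdkn2b r was -0.163 (p = 0.661, exact permutation) and rho 0.317 (p = 0.41). Without the 2 tumours farthest from the Cdkn2a median, MMTV-Cre replicate 4 among them, r was 0.748, a value not tested. Ad-Cre and MMTV-Cre tumours and transplants and other tumours are pooled in these values, and apart they were too few for values of their own.

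The genes whose pattern over the 17 arrays was most like that of each inhibitor were named by the highest Pearson r. Predicted genes, small RNAs, olfactory and vomeronasal receptors and receptor or immunoglobulin segments were skipped in this ranking, and negative relations were not ranked. The arrays share the contrast of normal tissue with tumours, so r over 17 arrays is given with r over the 9 Rb/p53 tumours. The 9 tumours are among the 17 arrays used to pick the genes, so the second r is not independent of the first. For Cdkn2a these were Hbegf, an EGF receptor ligand (r = 0.972, and 0.941 over the 9 Rb/p53 tumours), Ccbe1 (0.962 and 0.838) and Gmeb1 (0.951 and 0.904). MMTV-Cre replicate 4, with Cdkn2a far below the other Rb/p53 tumours, is in both values, and r without it is not given here. For Cdkn2b they were Csnk1d, a casein kinase (0.947 and 0.804), Xpnpep1 (0.943 and 0.704) and Alkbh5, an RNA demethylase (0.934 and 0.685), and for Cdkn2c the junction gene Cgnl1 (0.906 and 0.843) led Gata3 and Inpp1 (0.875 and 0.833). For Cdkn2d, Mxi1, which encodes an antagonist of Myc, came first (0.906 and 0.847). The KIP genes were led by Lrch1 for Cdkn1a (0.870 and 0.795), Pxk for Cdkn1b (0.793 and 0.641) and Vsig10 for Cdkn1c (0.854 and 0.793).

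The kinases and cyclins that the inhibitors bind, listed together with Pcna, which is neither, rose in part in Rb/p53 tumours. Of the 12 genes measured 6 were higher and 1 lower, against 14.2% and 13.4% of all genes, with a median log2 fold of 0.45 against 0.03. Pcna did not pass (0.33, adjusted p = 0.258). Cdk6, the INK4 target kinase, rose from 10.01 to 11.29 (1.27 ± 0.21 SE, adjusted p = 0.000232), and Ccne1, cyclin E1, rose by 1.06 ± 0.26 (adjusted p = 0.00497). Ccna2, cyclin A2, and Cdk1 rose by 1.62 ± 0.46 and 1.45 ± 0.41 (adjusted p = 0.0135 and 0.0145). The member that fell was Ccnd2, cyclin D2 (-1.17 ± 0.36, adjusted p = 0.0213). In p53 tumours Cdk6 alone of the 12 passed (1.22 ± 0.27, adjusted p = 0.00463), in all 28 alternatives, and the list's median was 0.19. That count is near the 8.34% of all genes that were higher. Cdk4, the other INK4 target, was at 0.16 (adjusted p = 0.519) and -0.31 (adjusted p = 0.29).

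Downstream, 5 of 13 genes of the Rb and E2F families were higher in Rb/p53 tumours and 1, Rb1, was lower (median 0.45), against 14.2% and 13.4% of all genes. Tfdp1, the E2F partner DP1, rose by 0.98 ± 0.21 (SE, adjusted p = 0.00241). E2f5 rose by 0.78 ± 0.22 (adjusted p = 0.0137) and E2f1 by 0.71 ± 0.21 (adjusted p = 0.018), calls lost without normal replicate 1 (0.67, adjusted p = 0.0503, and 0.52, adjusted p = 0.0692). In p53 tumours Rb1 alone passed, as lower (-0.81 ± 0.21, adjusted p = 0.0124), a call lost without p53 replicate 1 (-0.58, adjusted p = 0.0751). Of 14 proliferation genes 11 rose in Rb/p53 tumours (median 1.18) and none fell, against the same shares of all genes, with the mitotic kinases Plk1 at 1.69 ± 0.41 and Aurka at 1.38 ± 0.33 and the replication licensing genes Mcm3 at 1.11 ± 0.31 and Mcm4 at 1.17 ± 0.33 (adjusted p = 0.0054, 0.00522, 0.0138 and 0.0139). Mcm4 lost its call without normal replicate 1 (0.85, adjusted p = 0.0516). In p53 tumours none of the 14 passed (median 0.54), and 2 had an unadjusted p below 0.05, as did 7063 of all 19939 genes. For both lists the shares of all genes in p53 tumours were 8.34% higher and 12.1% lower. Cdk1 is counted among the proliferation genes and among the kinases above.

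Of 18 measured regulators of Cdkn2a, 3 rose and 3 fell in Rb/p53 tumours (median 0.15), near the 14.2% and 13.4% of all genes. Tbx2, a repressor of Cdkn2a, fell by 0.51 on the log2 scale (-0.51 ± 0.07 SE, adjusted p = 6.67e-05), as did the Polycomb subunit Ring1 (-0.31 ± 0.09, adjusted p = 0.012). Its relative Rnf2 (0.63 ± 0.15, adjusted p = 0.00444) and Twist1, which counters p19Arf (0.88 ± 0.24, adjusted p = 0.0106), rose. In p53 tumours Tbx2 (-0.49 ± 0.10, adjusted p = 0.0016) and Ring1 (-0.44 ± 0.11, adjusted p = 0.0116) fell and none of the 18 rose (median -0.08), with the Ring1 call lost without p53 replicate 1 (adjusted p = 0.0517). That count is near the 12.1% of all genes that were lower in p53 tumours, where 8.34% were higher. The Polycomb genes Bmi1 and Ezh2, known for silencing the locus, did not pass in Rb/p53 (0.25, adjusted p = 0.348, and 0.37, adjusted p = 0.223) or p53 tumours (-0.31, adjusted p = 0.36, and 0.01, adjusted p = 0.992). Cbx7, also a Polycomb gene, fell in Rb/p53 tumours (-0.46 ± 0.13 SE, adjusted p = 0.0158) and did not pass in p53 tumours (-0.28, adjusted p = 0.264). Of the p19Arf partners, Npm1, the nucleolar protein that holds p19Arf, was at 0.30 (adjusted p = 0.345) and 0.03 (adjusted p = 0.942), with list medians of 0.19 and -0.02 over Npm1 and Mdm2.

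TGF-beta signalling is known to induce Cdkn2b and Cdkn1a, and Myc with Zbtb17 to repress them. Of 10 genes of this axis 2 rose in Rb/p53 tumours and none fell (median 0.23), near the 14.2% of all genes that were higher. They were the ligand Tgfb1 (0.67 ± 0.13 SE, adjusted p = 0.00124) and its receptor Tgfbr1 (0.70 ± 0.21, adjusted p = 0.0199), which was not called under cyclic loess (0.55, adjusted p = 0.0691) or with only the 2 tumours that were not transplants (0.26, adjusted p = 0.331). In p53 tumours Tgfb1 (1.00 ± 0.18, adjusted p = 0.000668), Tgfbr1 (0.93 ± 0.28, adjusted p = 0.0242) and Smad4 (0.46 ± 0.14, adjusted p = 0.0292) rose and Tgfb3 fell (-0.92 ± 0.32, adjusted p = 0.0482), with a median of 0.10. There 8.34% of all genes were higher and 12.1% lower. Without p53 replicate 2 the calls on Tgfbr1 (0.92, adjusted p = 0.0558), Smad4 (0.25, adjusted p = 0.16) and Tgfb3 (-0.89, adjusted p = 0.109) were lost. Tgfbr1 was also lost without p53 replicate 3, Smad4 without normal replicate 2 or 3, and Tgfb3 in 20 of 28 alternatives. Myc (0.65, adjusted p = 0.251, and -0.21, adjusted p = 0.794) and Zbtb17 (0.20, adjusted p = 0.106, and 0.20, adjusted p = 0.24) did not pass. No gene on any of these lists passed between the tumour genotypes, where 0.00% of all genes were higher and 0.00502% lower. Rb1 itself did not pass there (-0.86 ± 0.20 SE, limma adjusted p = 0.112), though its levels did not overlap between the genotypes.

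Markers of cell types differed between the samples along with these results. Besides adipocyte and luminal markers, 6 of 7 basal markers were lower in Rb/p53 and 5 in p53 tumours, with mean levels of 10.52 to 10.89 in normal tissue, 7.94 to 9.05 in Rb/p53 and 8.19 to 9.02 in p53 tumours. Of 7 skeletal muscle markers 7 and 3 were lower, of 7 endothelial markers 2 and 4, of 8 fibroblast markers 2 and 0, of 5 T cell markers 5 and 0, and of 4 B and plasma cell markers 3 and 1. Over all genes 13.4% and 12.1% were lower, shares near which the fibroblast counts lie. Macrophage markers went the other way, with 3 and 6 of 7 higher against 14.2% and 8.34% of all genes. Their mean levels were 10.36 to 10.78 in normal tissue, 10.90 to 11.99 in Rb/p53 and 11.41 to 12.97 in p53 tumours. MMTV-Cre replicate 4, the Rb/p53 tumour with low Cdkn2a, had the lowest macrophage and endothelial means of that genotype, at 10.90 and 9.33, and a luminal mean of 8.57 inside its range. The part of these markers in the inhibitor levels was not tested.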

How the data were processed

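Per the submitters' processing notes, the deposited log2 values of 35556 probe sets on 17 arrays were made by RMA in Partek 5.6, which corrects background, normalises between arrays and summarises probes. The build and further settings are not given here. Groups came from the labels. Probe sets that list a single symbol were used, keeping that with the highest mean per symbol, and Cdkn1a, listed only together with 4930567H12Rik, was added, giving 19939 genes. Probe sets with 1 symbol numbered 21789, with several 1621 and with none here 12146, and by Entrez ID 21698 were found in the mouse gene table, with 0 symbols changed.

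Genes were tested with limma 3.58.1 (lmFit and eBayes) in R 4.3.3, two-sided, with Benjamini-Hochberg adjustment over all 19939 genes and a threshold of 0.05. Each tumour genotype was compared with normal tissue on all 17 arrays as 3 groups, Rb/p53 with p53 tumours on the 12 tumour arrays, Ad-Cre with MMTV-Cre on the same arrays as 3 groups, and transplanted with other MMTV-Cre tumours on their 7 arrays. The fit was tested on simulated data. The genes and lists were chosen with earlier results of these data known. Of each list the up to 4 genes with the smallest adjusted p are named, plus Ccnd2, Cdk4, Pcna, Mdm2, Npm1, Bmi1, Ezh2, Cbx7, Myc and Zbtb17, which were named after their values were seen. List genes without a probe set of their own (such as Trp53, Ccnb1, H19 and Bax) were not analysed here. Motif settings were chosen with the promoter sequences in view. Alternatives were array weights, robust eBayes with an intensity trend, cyclic loess, a further quantile normalisation, a filter at the 25th percentile of gene means, averaging the probe sets of each symbol, an added log2 fold of at least 1, other sets of arrays or tumours, placing p53 replicate 3 with Rb/p53, and leaving out each array in turn. Reading the other Cdkn1b probe set, and leaving out p53 replicate 2 together with MMTV-Cre replicate 4, were added after seeing the data. Precision is limited by how many arrays each group has.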

Additional observations from a re-analysis of the deposited data

Results flagged for a closer look

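Cdkn2a was at 8.30 in the Rb/p53 MMTV-Cre replicate 4 tumour, apart from the other tumours of its group. The gap to the next tumour was 0.639 of the range of the 7 MMTV-Cre tumours, beyond Dixon's 95% critical value for that many samples. Among the 9 Rb/p53 tumours of both Cre sources the gap was 0.628 of the range, beyond it as well. In all, 21 combinations of a gene and a group were examined in this way, and chance marks about 1 in 20.

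The Cdkn1b probe set with the lower mean, which the gene rule left out, differed between Rb/p53 tumours and normal tissue by 1.13 ± 0.21 (log2 fold ± SE, adjusted p = 0.000579), where the set with the higher mean gave 0.29 ± 0.13 (adjusted p = 0.12). All 9 Rb/p53 tumours lay above all 5 normal samples on it.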

How the results depend on the processing

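The Cdkn2a calls against normal tissue held in every alternative run for Rb/p53 (31) and p53 tumours (28), as did that on Cdkn2c in p53 tumours (28, folds -2.10 to -1.43). The Cdkn2b and Cdkn2d calls in Rb/p53 tumours held in 30 and 29 of 31. With only the Rb/p53 tumours that were not transplants, 1 of the 7 genes passed against normal tissue in place of 3. Between tumour genotypes 1 gene, Cdkn2c, passed with all 17 arrays in the fit and 0 without. With array weights Cdkn1b passed in Rb/p53 tumours (adjusted p = 0.011) and Cdkn2b in p53 tumours (adjusted p = 0.00503).

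Signs turned only for folds that did not pass. Cdkn1a turned under array weights (Ad-Cre against MMTV-Cre 0.084, p53 against normal -0.44), under cyclic loess (Rb/p53 against normal -0.037, against p53 -0.079), with p53 replicate 3 moved (Rb/p53 against p53 -0.12) and without both p53 replicate 2 and MMTV-Cre replicate 4 (Rb/p53 against normal -0.0044, p53 against normal -0.48). Cdkn1b turned with p53 replicate 3 moved (Rb/p53 against p53 -0.065), in p53 against normal under array weights (-0.13), cyclic loess (-0.00076), quantile normalisation (-0.0036) and without both tumours (-0.26), on the other probe set (Ad-Cre against MMTV-Cre 0.0030, transplanted against other -0.67) and with the mean of its probe sets (transplanted against other -0.25). Cdkn2c against normal was 0.11 with only Ad-Cre tumours. With each array left out in turn the folds that turned ranged as follows. Cdkn1a ran from -0.20 to 0.13 (Ad-Cre against MMTV-Cre), -0.0044 to 0.20 (Rb/p53 against normal), -0.32 to 0.59 (Rb/p53 against p53), -0.48 to 0.43 (p53 against normal) and -0.67 to 0.80 (transplanted against other). Cdkn1b ran from -0.15 to 0.066 (Ad-Cre against MMTV-Cre) and -0.26 to 0.27 (p53 against normal), and Cdkn1c from -0.86 to 0.43 (Ad-Cre against MMTV-Cre) and -0.16 to 0.024 (Rb/p53 against normal). Cdkn2a ran from -0.10 to 1.04 (Rb/p53 against p53), and between transplanted and other tumours Cdkn2a ran from -0.36 to 0.34, Cdkn2b from -0.072 to 0.27 and Cdkn2d from -0.13 to 0.25. The cause of these turns was not tested.

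Over all genes the count of calls in Rb/p53 against normal was 5503, and 1630 with a log2 fold of at least 1, 1972 with only Ad-Cre and 2005 with only the tumours that were not transplants; in p53 against normal it was 4073, and 1617 with that fold. Between genotypes it was 1, with 356 on all 17 arrays, 2044 with p53 replicate 3 moved, 1358 without p53 replicate 3 and 19 without replicate 1. For Ad-Cre against MMTV-Cre it was 1, and 30 without Ad-Cre replicate 1; for transplanted against other it was 5, and 158 without MMTV-Cre replicate 1. Of the calls in Rb/p53 tumours 51.4% and in p53 tumours 40.8% were higher, and 42% and 35.8% under cyclic loess. Most list calls in Rb/p53 tumours were lost with only Ad-Cre or only non-transplanted tumours, where 2 remain. No paired analysis was possible because the labels carry no replicate numbers shared between groups.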
